A study of Homo sapiens with 8 samples.

Results

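The snoRNA host genes GAS5, SNHG1, SNHG3, SNHG5, SNHG6, SNHG7, SNHG8, SNHG12, SNHG15 and DANCR were examined in RNA-seq data of 2 clear cell renal cell carcinoma (ccRCC) cell lines. These 10 genes were chosen by name, and their level was to be read from the RefSeq noncoding (NR) rows of the deposited tables, summed per gene symbol, without the rows of the snoRNAs that lie inside them. The tables held 22678 gene symbols with RefSeq rows. Of the 10 hosts, 8 had an NR row among the rows analysed here (GAS5 and SNHG6 did not), and 4 of them (SNHG5, SNHG7, SNHG8 and DANCR) reached the mean of 1 FPKM over the libraries that was required for a test. FPKM scales the fragments of a transcript by its length and by the mapped reads of the library, so levels are given per length. All hosts but SNHG8 had a row from the GENCODE catalogue of long noncoding RNAs, and Cufflinks, which made the tables, divides reads among rows that overlap. A combined level, the sum of NR and GENCODE rows of one symbol, was therefore added after the values were seen. It was available for all 10 hosts, and over the series for 34751 symbols. For symbols other than the hosts, both levels also summed the RefSeq coding (NM) rows. The shares over all genes given below thus include coding genes.

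The study asked what follows knockdown of SLINKY, a long intergenic noncoding RNA, in A498 and 786-O cells. Each line, an established line from a kidney carcinoma, gave 4 libraries. Of these, 2 came from cells with a non-targeting control siRNA (NTC) and 1 each from cells with SLINKY siRNA #1 and siRNA #2, all transfected by lipofection at 50 nM for 16 h according to the labels. The labels do not say whether the NTC libraries of a line came from separate cultures, so the p-values measure the spread between these libraries, which may be technical. Each cell line is a single line, so a difference between A498 and 786-O is one between these cells and their media (DMEM and RPMI-1640). The cell lines, not a sorted tissue, were sequenced, and fewer cells with a transcript cannot be told apart from less RNA per cell.

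Most human snoRNAs are cut from introns of longer transcripts. Box C/D snoRNAs guide methylation of ribosomal RNA riboses, and box H/ACA snoRNAs guide pseudouridine formation. In noncoding hosts the introns carry the snoRNAs, while the spliced exons are often degraded quickly by nonsense-mediated decay during translation. Several hosts, like ribosomal protein genes, start transcription at a C within a pyrimidine tract, the 5′ terminal oligopyrimidine (TOP) sequence, which ties their RNA to growth signals through mTOR.

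The hosts lie on several chromosomes, and all are annotated as lncRNA genes by GENCODE. In GRCh37 coordinates of the table rows, SNHG5 spans chr6:86370710-86388451 and DANCR spans chr4:53578597-53586518. SNHG1 spans chr11:62619460-62623386, SNHG7 spans chr9:139615818-139622636, SNHG8 spans chr4:119199917-119200978 and SNHG15 spans chr7:45022622-45026560. On chromosome 1 are SNHG3 (chr1:28832455-28837404), SNHG12 (chr1:28905050-28909495) and GAS5 (chr1:173833038-173838020).

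The start sites of the hosts are shown because the first transcribed letters define the TOP class. RefSeq windows of the GRCh38.p14 build were found for 8 of the 10 genes (not SNHG6 or SNHG15). Where a gene had more than one annotated start, only the first listed was taken, and its other starts are not shown. Whether the transcripts measured here began at these starts was not tested. Each window is 60 bases long, in the direction of transcription, with the first 10 transcribed bases in capitals.
SNHG5 (chr6:85678704-85678763, minus strand): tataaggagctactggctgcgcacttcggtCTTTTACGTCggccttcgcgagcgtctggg
DANCR (chr4:52712364-52712423, plus strand): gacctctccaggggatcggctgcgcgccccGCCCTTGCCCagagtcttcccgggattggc
SNHG1 (chr11:62855856-62855915, minus strand): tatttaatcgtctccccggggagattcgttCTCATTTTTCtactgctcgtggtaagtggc
SNHG7 (chr9:136728155-136728214, minus strand): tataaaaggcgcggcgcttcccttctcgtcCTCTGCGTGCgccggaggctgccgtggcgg
SNHG12 (chr1:28581844-28581903, minus strand): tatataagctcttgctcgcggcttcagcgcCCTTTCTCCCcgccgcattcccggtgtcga
SNHG8 (chr4:118278732-118278791, plus strand): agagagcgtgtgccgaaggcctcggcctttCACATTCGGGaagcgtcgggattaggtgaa
SNHG3 (chr1:28505913-28505972, plus strand): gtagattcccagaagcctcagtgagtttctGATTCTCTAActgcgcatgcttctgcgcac
GAS5 (chr1:173869016-173869075, minus strand): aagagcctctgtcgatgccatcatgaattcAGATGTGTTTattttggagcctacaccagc
In these windows, annotated transcription began at a C in SNHG1, SNHG5, SNHG7, SNHG8 and SNHG12. A run of a C followed by at least 5 C or T was searched within 10 bases on either side of the start. On the transcribed strand it was found in 3 of the 8 (SNHG7, SNHG8 and SNHG12), against 16.7% of all 35116 promoters. The run of SNHG7 lay wholly before the start, and that of SNHG8 had only its last base transcribed. In SNHG12 the run covered the first transcribed bases. The letters TATAA, searched on the same strand within 40 bases before the start and only after the windows were seen, were found in 4 of the 8 (SNHG5, SNHG7, SNHG8 and SNHG12), against 4.34% of all promoters. CACGTG was found in the window from 250 bases before to 50 bases after the start of SNHG7 alone, against 7.26% of all promoters. The hosts with and without these letters were not compared.

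The depth of the libraries, estimated from single-read rows, was 25077443 to 64572622 mapped reads. SLINKY was listed at 14.6 and 16.1 FPKM in the A498 NTC libraries against 1.64 and 3.01 with siRNA #1 and #2. In 786-O it was at 1.45 and 1.39 FPKM against 0.0569 and 0.594. The difference over both lines was -2.47 on the log2 scale (exact permutation test within lines, two-sided, p = 0.0556, the smallest the design allows). Of 9 markers of renal carcinoma cells, 8 were above 1 FPKM in every library, while CA9, a target of hypoxia signalling that defines most ccRCC, was at 0.293 to 0.559 FPKM in A498 and at most 0.0229 in 786-O. The leukocyte marker PTPRC was listed at 0 in every library, and PECAM1 and ALB were under 0.1 FPKM. DES, a muscle marker, reached 0.995 to 1.26 FPKM in A498 and at most 0.0538 in 786-O, and its part in the results was not tested.

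The host genes were lower in A498 than in 786-O, with the exception of SNHG15. The combined level of the 10 hosts summed to 1344 to 1430 FPKM in the A498 libraries and to 2680 to 2864 FPKM in the 786-O libraries. SNHG5 made up much of this, since the other 9 hosts summed to 1306 to 1386 FPKM in A498 and to 1922 to 2056 FPKM in 786-O. No host's range in the 4 A498 libraries overlapped its range in the 4 786-O libraries (the plot of the combined level by library). The share of all genes without such overlap is not given here. Since 79.4% of the 12639 tested genes passed the test between the lines, the separation is not read as a trait of the hosts.

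**Figure D1:**
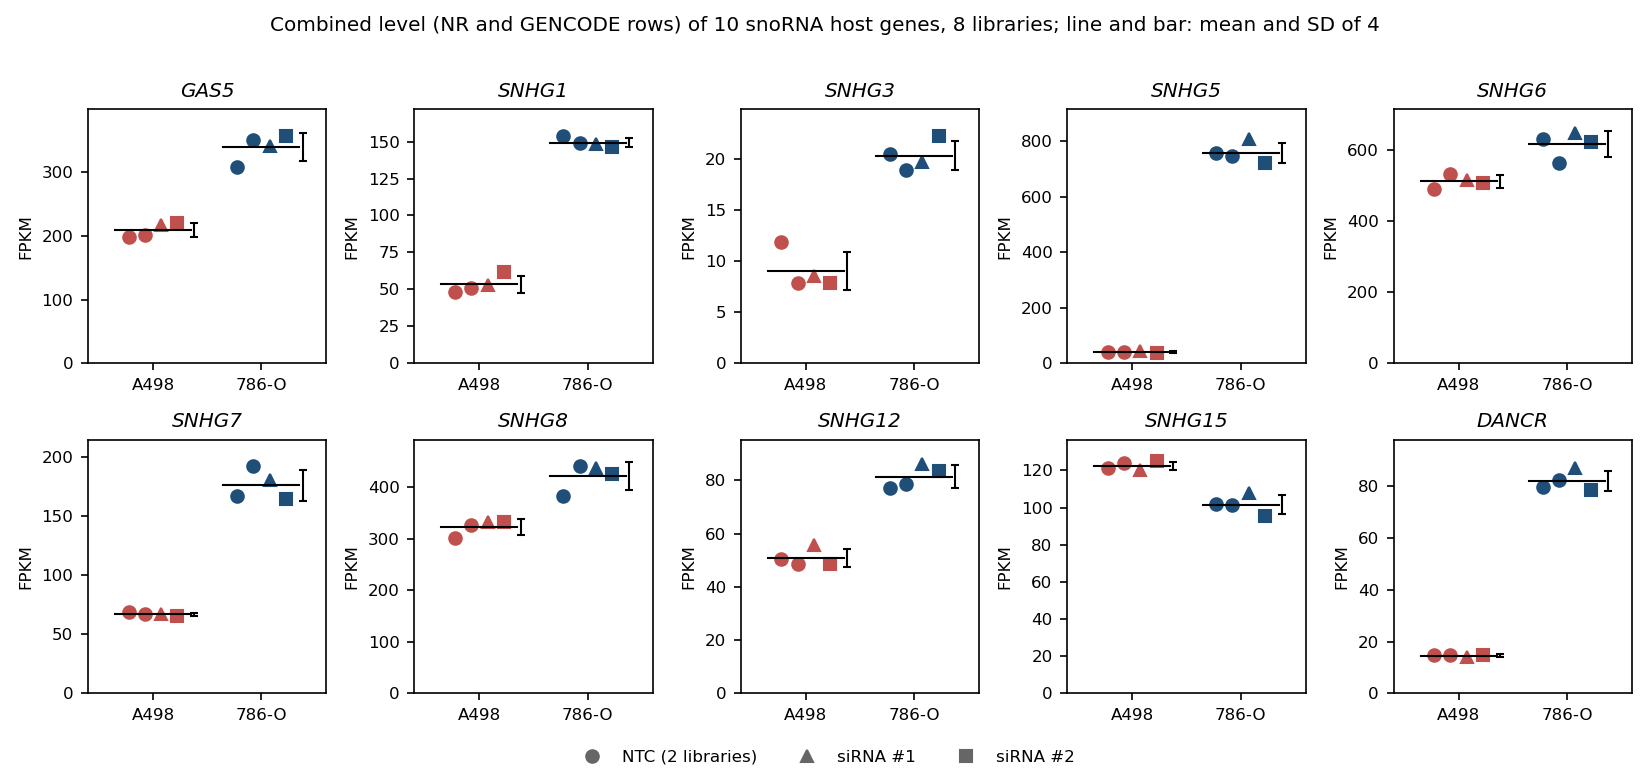
Combined level in FPKM (linear axis from 0) of the 10 snoRNA host genes in the 4 A498 (red) and 4 786-O (blue) libraries, with circles for NTC, triangles for siRNA #1, squares for siRNA #2, horizontal lines for the mean and bars for the SD of 4 libraries. SNHG5 lies between 34.9 and 44.01 FPKM in A498 and between 720 and 807 FPKM in 786-O, and SNHG15 is the host with the higher level in A498.

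In limma's moderated test over all genes (log2 of FPKM + 0.1, Benjamini-Hochberg adjustment), all 10 hosts passed an adjusted p of 0.05 at the combined level, 9 lower and 1 higher in A498. This count is read against a background in which 79.4% of the 12639 tested genes passed, and 40.4% passed with the lower level in A498. Of the 10 hosts, 5 (SNHG5, DANCR, SNHG1, SNHG7 and SNHG3) were at least 2-fold lower in A498, a limit set after the values were seen, against 8.67% of the tested genes. The median difference of the hosts was -0.94 on the log2 scale and that of all tested genes was -0.02.

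SNHG5, the host of the box C/D snoRNAs SNORD50A and SNORD50B, differed most. Its combined level was 38.3 and 40.02 FPKM in the A498 NTC libraries and 44.01 and 34.9 FPKM with siRNA #1 and #2. The 786-O libraries gave 758 and 744 FPKM with NTC and 807 and 720 FPKM with siRNA #1 and #2. Every 786-O library was thus far above every A498 library. The difference was -4.27 ± 0.04 on the log2 scale (SE, adjusted p = 1.9e-08), or 19.3-fold, which ranked 458 in size among the 12639 genes. SNHG5 was the highest of the 10 hosts in 786-O and the eighth in A498.

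DANCR, a differentiation antagonizing noncoding RNA that carries SNORA26, came next. Its combined level was 14.8 and 14.9 FPKM in the A498 NTC libraries and 14.1 and 14.7 FPKM with siRNA #1 and #2. In 786-O it was 79.6 and 82.2 FPKM with NTC and 86.9 and 78.2 FPKM with siRNA #1 and #2. The spread within a line was small beside the gap, with a coefficient of variation of 2.66% in A498 and 4.67% in 786-O. The difference was -2.47 ± 0.04 (adjusted p = 9.2e-08), or 5.56-fold.

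The snoRNAs of SNHG5, DANCR and SNHG15 are shown because these hosts lie at the ends of the range. They are read from GRCh37, the build of the tables (hg19), on the strand of the host. Capitals mark the letters TGATGA of the C box and CTGA of the D box in SNORD50A and SNORD50B, and the ACA near the 3′ end in SNORA26 and SNORA9.
SNORD50A (chr6:86387012-86387086, minus strand): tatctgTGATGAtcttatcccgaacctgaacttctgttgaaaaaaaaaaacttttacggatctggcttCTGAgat
SNORD50B (chr6:86387307-86387377, minus strand): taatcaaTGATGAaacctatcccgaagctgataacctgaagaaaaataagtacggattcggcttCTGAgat
SNORA26 (chr4:53579416-53579537, plus strand): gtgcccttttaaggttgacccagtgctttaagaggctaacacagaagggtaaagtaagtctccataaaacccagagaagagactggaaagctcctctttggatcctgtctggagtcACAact
SNORA9 (chr7:45024977-45025109, minus strand): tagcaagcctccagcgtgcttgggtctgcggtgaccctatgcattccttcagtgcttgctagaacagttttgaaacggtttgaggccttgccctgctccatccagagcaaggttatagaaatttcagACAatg
All of them lie in an intron of most annotated host transcripts that span them, 72 of 85 for SNORD50A, 72 of 87 for SNORD50B, 12 of 13 for SNORA26 and 10 of 14 for SNORA9.

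SNHG1, SNHG7 and SNHG3 were 2- to 3-fold lower in A498. SNHG1, which carries a series of box C/D snoRNAs, was at 48.3 and 51.0 FPKM with NTC and 53.2 and 61.5 FPKM with siRNA #1 and #2 in A498. In 786-O it was at 154, 149, 148 and 146 FPKM in the same order. The difference was -1.48 ± 0.07 (adjusted p = 2.9e-06). SNHG7, which carries the H/ACA snoRNAs SNORA17A and SNORA17B, was at 65.6 to 68.8 FPKM in A498 and at 164 to 193 FPKM in 786-O, a difference of -1.39 ± 0.05 (adjusted p = 1.2e-06).

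SNHG3 was the lowest of the hosts in both lines. It was at 11.8 and 7.88 FPKM with NTC and 8.49 and 7.81 FPKM with siRNA #1 and #2 in A498, where the first NTC library stood above the other three. The 786-O libraries were at 20.4, 18.8, 19.7 and 22.2 FPKM. The difference was -1.18 ± 0.15 (adjusted p = 0.00034). A pair of NR rows that span SNHG3 and its neighbour RCC1 carried no current symbol and were left out of the sum. They were at 0.00313 to 0.120 FPKM and at 0.884 to 2.98 FPKM.

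GAS5, SNHG12, SNHG8 and SNHG6 were lower in A498 by less. GAS5, whose introns held 10 snoRNA rows, more than any other host, was at 199 and 201 FPKM with NTC and at 218 and 220 FPKM with siRNA #1 and #2 in A498. Its level in 786-O was 308, 350, 342 and 357 FPKM, a difference of -0.70 ± 0.04 (adjusted p = 1.4e-05). SNHG12 was at 48.5 to 55.8 FPKM in A498 and at 77.2 to 86.3 FPKM in 786-O, a difference of -0.68 ± 0.04 (adjusted p = 7.1e-06).

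SNHG8, which has NR rows only, was at 301 to 333 FPKM in A498 and 383 to 441 FPKM in 786-O. The difference was -0.38 ± 0.05 (adjusted p = 0.00061). SNHG6, the highest host in A498 and the second in 786-O, was at 491 to 533 FPKM and 563 to 648 FPKM. The difference was -0.27 ± 0.05 (adjusted p = 0.0026), and the call was lost when the NTC libraries alone were compared (-0.22, adjusted p = 0.092).

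SNHG15, the host of SNORA9, ran the other way. It was at 121 and 124 FPKM with NTC and 121 and 125 FPKM with siRNA #1 and #2 in A498, and at 102, 101, 108 and 95.3 FPKM in 786-O. The difference was 0.27 ± 0.04 (adjusted p = 0.00097), or 1.21-fold higher in A498. SNHG15 was the fourth of the 10 hosts in A498 and the seventh in 786-O.

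The hosts covered a wide range within a line. In A498 the order of mean combined levels was SNHG6, SNHG8, GAS5, SNHG15, SNHG7, SNHG1, SNHG12, SNHG5, DANCR and SNHG3, and only the libraries of SNHG1 and SNHG12 overlapped as neighbours in that order. In 786-O it was SNHG5, SNHG6, SNHG8, GAS5, SNHG7, SNHG1, SNHG15, DANCR, SNHG12 and SNHG3, with overlap between DANCR and SNHG12 alone. The hosts at the top were among the most abundant symbols of the tables. SNHG6 ranked 175 of 34751 in A498, and SNHG5 ranked 119 in 786-O and 2368 in A498.

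The NR rows alone gave a different picture for several hosts, since they held a variable share of the combined level. They held 100% of it for SNHG8, 29.1% to 34.7% for SNHG7 and 0.164% to 3.06% for SNHG5. For SNHG1 the share was at most 0.000976%, for SNHG15 at most 0.247%, and for SNHG3 at most 3.15%. The NR rows of SNHG1, SNHG3 and SNHG15 thus stayed at or under 0.621 FPKM in every library, while the same genes reached 154, 22.2 and 125 FPKM at the combined level.

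**Figure D2:**
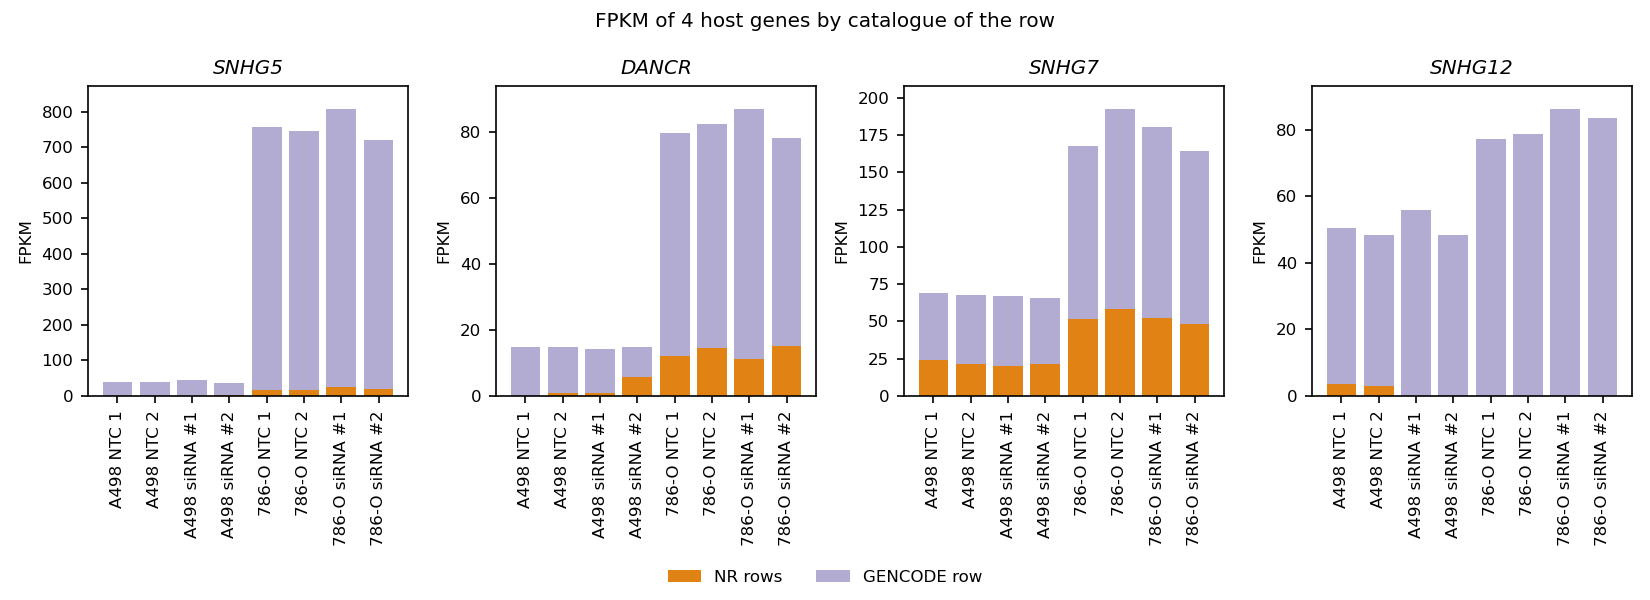
FPKM (linear axis from 0) of SNHG5, DANCR, SNHG7 and SNHG12 in each library, with the NR rows in orange and the GENCODE row of the same gene stacked above in violet. The NR share of SNHG7 is similar in all libraries, whereas that of DANCR runs from 0.00605% to 39.4%.

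The 4 hosts that could be tested on their NR rows all passed with the lower level in A498, where 81.0% of the 11367 tested genes passed and 41.7% passed in that direction. The NR row of SNHG5 was at 0.247, 0.0657, 0.706 and 1.07 FPKM in A498 (NTC 1, NTC 2, siRNA #1, siRNA #2) and at 17.3, 15.9, 23.8 and 18.4 FPKM in 786-O. Its mean was 0.522 FPKM in A498, so this row reached the mean of 1 FPKM required for a test only through 786-O. The difference was -5.28 ± 0.42 (adjusted p = 2.9e-05). It depended on the pseudocount, with -5.74 at 0.01 and -3.74 at 1, and over all alternatives it ranged from -6.12 (NTC libraries only) to -3.74, where the combined level stayed between -4.29 and -4.24. SNHG7 gave -1.27 ± 0.06 (adjusted p = 2.5e-06) and SNHG8 gave -0.38 ± 0.05 (adjusted p = 0.00049).

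The NR row of DANCR was at 0.000896, 0.902, 0.956 and 5.77 FPKM in the A498 libraries and at 11.99, 14.4, 11.2 and 15.2 FPKM in 786-O. Its A498 values thus ran from near 0 to 5.77 FPKM while the combined level of the same libraries stayed within 14.1 to 14.9 FPKM. The difference of the NR row was -3.89 ± 0.93 (adjusted p = 0.0074). Among the knockdown libraries alone it was -2.40 with an adjusted p of 0.096. The NR row of SNHG12 was at 3.65 and 2.90 FPKM in the A498 NTC libraries and under 0.001 FPKM in the other 6, and it did not reach the mean of 1 FPKM, while the combined level showed no such step.

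The genes beside the hosts, placed by their RefSeq coding (NM) rows, were compared in the same way on all RefSeq rows of their symbol. Of 21 host and neighbour pairs within 50 kb, 12 had a neighbour that could be tested, and RCC1 and TRNAU1AP each stood beside 2 hosts. Of the 10 distinct genes tested, 6 were lower in A498, 1 was higher and 3 did not pass, where 41.7% of all RefSeq genes tested passed with the lower level in A498. SLC3A2, the heavy chain of amino acid transporters, starts 98 bases from SNHG1, and was at 282 ± 8.38 FPKM in A498 and 277 ± 3.15 FPKM in 786-O (SD, n = 4), a difference of 0.02 ± 0.03 (adjusted p = 0.47). On the other side of SNHG1, WDR74, a nucleolar protein gene 11832 bases away, was at 29.5 ± 0.552 FPKM in A498 and 51.6 ± 3.23 FPKM in 786-O, and was lower in A498 as SNHG1 was (-0.80 ± 0.05, adjusted p = 6.5e-06). PRSS12, a serine protease gene 215 bases from SNHG8, was 6.46-fold higher in A498 (2.69 ± 0.11, adjusted p = 1.5e-06), whereas SNHG8 was lower there. PRSS12 was low, at 2.10 ± 0.0838 FPKM in A498 and 0.242 ± 0.0366 FPKM in 786-O. It reached the mean of 1 FPKM only through A498.

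SYNCRIP, an RNA-binding protein gene 17667 bases from SNHG5, was 1.48-fold lower in A498 (-0.57 ± 0.04, adjusted p = 1.5e-05), beside the 19.3-fold of SNHG5. CCM2 beside SNHG15 and AGPAT2 beside SNHG7 did not pass, with -0.01 ± 0.05 and -0.06 ± 0.04.

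On chromosome 1, where SNHG3 and SNHG12 lie near each other, the coding neighbours were lower in A498 along with the hosts. RCC1, the exchange factor of Ran, gave -0.97 ± 0.04 (adjusted p = 9.0e-07). TRNAU1AP, a selenocysteine tRNA-associated protein gene that overlaps SNHG12, gave -1.03 ± 0.04 (adjusted p = 1.2e-06), and RAB42 gave -0.83 ± 0.06 (adjusted p = 1.7e-05). PHACTR4, on the other side of SNHG3, gave -0.34 ± 0.04 (adjusted p = 0.00023). The library kit did not mark the strand, so reads of overlapping genes on opposite strands cannot be told apart.

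**Figure D3:**
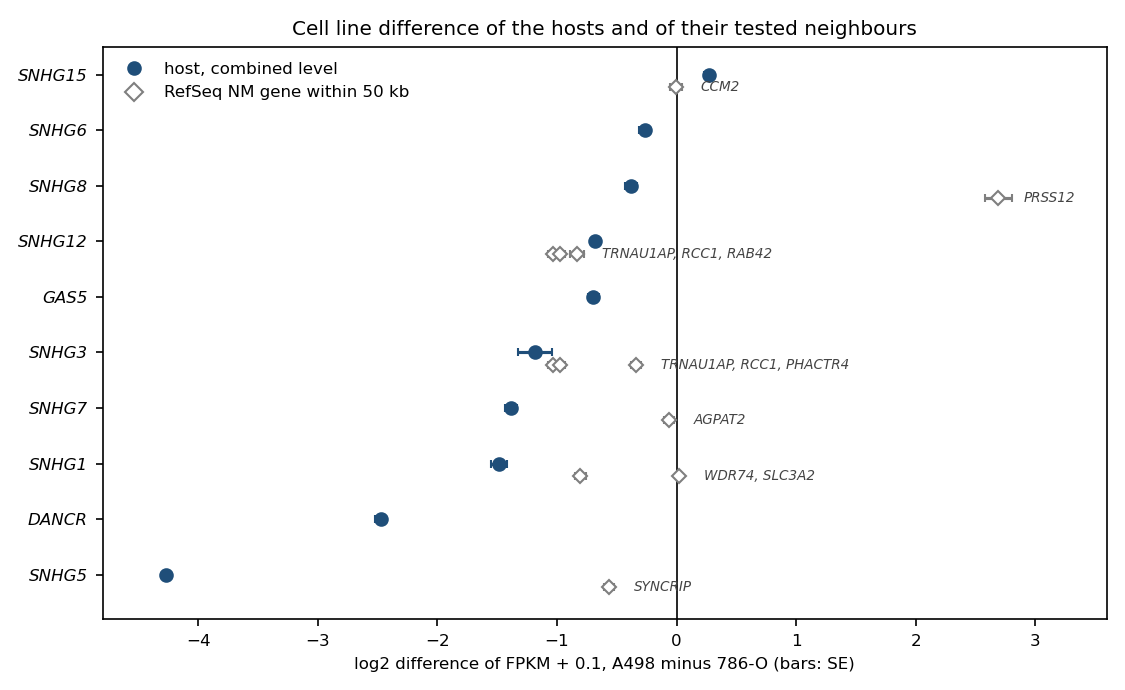
Log2 difference of FPKM + 0.1 between A498 and 786-O (linear axis in log2 units, bars for the SE) of each host's combined level (filled circles) and of its tested coding neighbours within 50 kb (open diamonds, named from left to right). SNHG5 lies at -4.27 and SYNCRIP at -0.57, and PRSS12 lies at 2.69 beside SNHG8 at -0.38.

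Other genes of the snoRNA pathway were compared by lists, with counts of genes that passed in limma's test. The core proteins of snoRNA particles were lower in A498 for 7 of 8 and higher for none, with a median of -0.67. NOP56, a scaffold of the box C/D particle, gave -1.19 ± 0.03, SNU13, which binds the C/D fold, gave -1.16 ± 0.05, and DKC1, the pseudouridine synthase of the H/ACA particle, gave -0.79 ± 0.03. Of 12 assembly factors, 9 were lower and 1 was higher, with a median of -0.40, and RUVBL1, ZNHIT6 and SHQ1 gave -0.79, -0.71 and -0.67.

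Protein-coding snoRNA hosts, mostly genes of ribosomal proteins and translation factors, were lower in A498 for 23 of 31 and higher for 4, with a median of -0.58. NOP56 (-1.19), named above among the core proteins, is counted in this list too, so the lists are not independent. Nucleolin (NCL) gave -0.99 ± 0.05 and RPL17 gave -0.92 ± 0.06. The other noncoding hosts were more mixed, with 5 of 14 lower, 3 higher and 6 that did not pass, and a median of -0.21. SNHG18 was at 7.34 to 11.9 FPKM in A498 and 26.5 to 31.1 FPKM in 786-O (-1.48 ± 0.09). SNHG4 gave -0.89 ± 0.11, and SNHG30 gave 0.43 ± 0.06. SNHG4 was low, at 0.733 to 1.069 FPKM in A498 and 1.602 to 1.904 FPKM in 786-O. It reached the mean of 1 FPKM required for a test only through 786-O.

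Of 10 factors of nonsense-mediated decay, 6 were lower and 2 were higher in A498 (median -0.23). SMG8, a regulator of the SMG1 kinase, gave 0.94 ± 0.06, UPF2 gave -0.89 ± 0.05 and UPF3B gave -0.68 ± 0.07. Of 6 regulators of TOP RNAs, 3 were lower and 1 was higher (median -0.10), with -1.03 ± 0.05 for MTOR, -0.57 ± 0.05 for EIF4EBP2 and 0.53 ± 0.05 for RPTOR. These counts stand beside the 40.4% of all tested genes that passed with the lower level in A498.

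Knockdown of SLINKY moved no host past the threshold. At the combined level 0 of the 10 hosts passed in limma's test for siRNA #1 against NTC, for siRNA #2 against NTC, for siRNA #1 against siRNA #2, for both siRNAs against NTC, or for the difference of the knockdown effect between the lines. Over all genes 0.0712%, 0.0396%, 0.0396%, 0.00791% and 0.119% passed in these comparisons. At an unadjusted p under 0.05, limma gave 2, 1, 1, 1 and 0 of the 10 hosts, and 9.67%, 11.9%, 8.81%, 10.5% and 2.34% of all genes tested. The siRNA comparisons share their NTC libraries. Each siRNA was present in 1 library per line, so that effects common to both lines were tested.

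The hosts with an unadjusted p under 0.05 moved by small amounts. SNHG5 gave 0.14 ± 0.04 with siRNA #1 (adjusted p = 0.45) and -0.11 ± 0.04 with siRNA #2 (adjusted p = 0.41). The siRNAs thus gave opposite signs in both lines, and siRNA #1 minus siRNA #2 was 0.25 ± 0.05 (adjusted p = 0.26). SNHG12 gave 0.16 ± 0.05 with siRNA #1 (adjusted p = 0.41).

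GAS5 was above the NTC mean of its line in all 4 siRNA libraries, with 0.11 ± 0.04 over both siRNAs (adjusted p = 0.46). SNHG8 was also above that mean in all 4, by 0.05 to 0.09. For GAS5 and SNHG8 in 786-O these steps were smaller than the distance between the NTC libraries, which was -0.19 for GAS5 and -0.20 for SNHG8 on the log2 scale. In A498 the steps of GAS5 (0.12 and 0.14) were larger than the distance between the NTC libraries (-0.01), and those of SNHG8 (0.09 and 0.08) were smaller (-0.12). The median difference of the hosts over both siRNAs was 0.03, and that of all tested genes was 0.01.

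In single libraries, which were described without a test, a host was counted where it lay at least 0.32 on the log2 scale from the NTC mean of its line, which is the fold limit used in the study. In A498 this held for 0 of the 10 hosts with siRNA #1 and 1 with siRNA #2, where 8.15% and 10.1% of the genes passed that limit. In 786-O it held for 0 of the 10 with either siRNA, where 9.82% and 8.13% of the genes passed. The host was SNHG3 (-0.33), for which the A498 NTC libraries differed from each other by 0.58. SNHG1 with siRNA #2 in A498 came close (0.31) and lay between -0.05 and 0.10 in the other siRNA libraries.

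**Figure D4:**
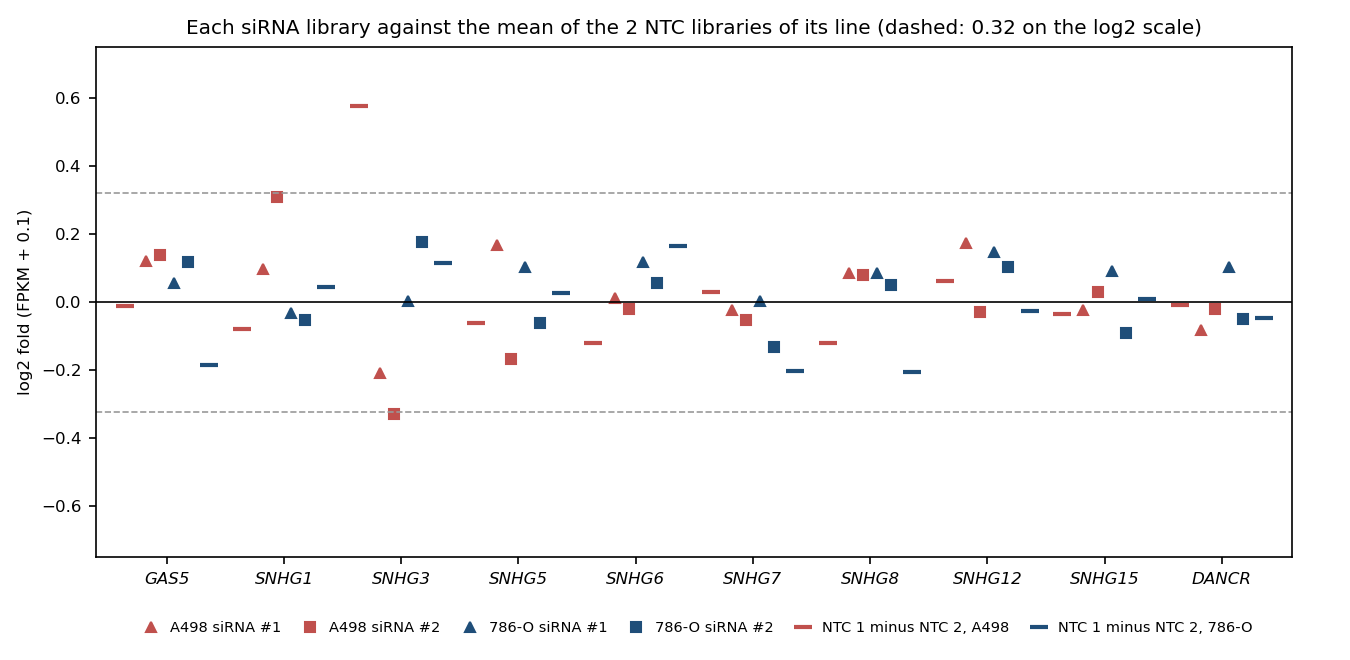
Log2 fold of FPKM + 0.1 for each host's combined level in the siRNA libraries (triangles for siRNA #1, squares for siRNA #2, red for A498, blue for 786-O) against the NTC mean of the line (2 libraries), with short bars for NTC 1 minus NTC 2 and dashed lines at that limit of 0.32. SNHG3 with siRNA #2 in A498 lies at -0.33, past the dashed line, and the NTC libraries of A498 differ by 0.58 for the same gene.

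On the NR rows 0 of the 4 tested hosts passed in any of these comparisons either, where 0.0704% of the genes passed for siRNA #1, 0.0352% for siRNA #2 and 0.00880% for both siRNAs against NTC. At an unadjusted p under 0.05 limma gave 0 of the 4 hosts for siRNA #1, siRNA #2 and the difference between them, and 1, SNHG5, both for the siRNAs together and for the difference of the knockdown effect between the lines. Of all genes tested, 10.1%, 12.6%, 8.82%, 11.5% and 1.93% had such a p in these comparisons. SNHG5 gave 1.18 ± 0.39 (adjusted p = 0.39) and DANCR gave 1.48 ± 0.95 (adjusted p = 0.55) over both siRNAs. The value of DANCR fell to 0.52 without the first A498 NTC library and to 0.69 without the A498 library with siRNA #2, and that of SNHG5 was 0.79 without the second A498 NTC library. At the combined level the same comparison gave 0.01 ± 0.07 for SNHG5 and -0.01 ± 0.04 for DANCR.

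Under knockdown, none of the 14 other noncoding hosts, 31 protein-coding hosts, 8 core proteins, 12 assembly factors, 10 decay factors or 6 TOP regulators tested passed for either siRNA or for both against NTC by limma's adjusted p. Of the other noncoding hosts SNHG18 had 11.9 and 11.7 FPKM with NTC against 10.6 and 7.34 with siRNA #1 and #2 in A498, and 30.6 and 31.1 against 26.5 and 26.9 in 786-O. Its difference over both siRNAs was -0.31 ± 0.11 (adjusted p = 0.44).

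The snoRNA rows inside the hosts, which were not part of any level above, were too sparse to follow the hosts. There were 30 rows of under 200 bases in 9 hosts, and 62.9% of their 240 values were under 0.001 FPKM. SNORD50B was at 0 in every library, and SNORD50A was above 0 in 3 of the 786-O libraries (9.55, 74.5 and 43.7 FPKM) and in no A498 library. SNORA26 ranged from 0 to 23.7 FPKM with zeros in both lines.

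Rows above 0.001 FPKM in all 8 libraries were SNORD22 in SNHG1, SNORA17A in SNHG7, SNORA24 in SNHG8 and SNORA16A in SNHG12. SNORD22 was at 28.1 to 59.9 FPKM in A498 and at 70.0 to 129 FPKM in 786-O, with no overlap. SNORA17A was at 2.20 to 42.9 FPKM and 48.6 to 71.4 FPKM, also with none. SNORA24 overlapped between the lines, with 12.2 to 43.2 FPKM and 40.2 to 91.0 FPKM. SNORA16A overlapped too, with 3.57 to 21.5 FPKM and 10.6 to 24.1 FPKM. The share of all rows without overlap is not given here, so the separation of SNORD22 and SNORA17A is not read as a trait of these rows. Cufflinks marked SNORD22, SNORA17A and SNORA16A as low on data in all 8 libraries, and SNORA24 in 0. Reads of the mature snoRNA and of host introns cannot be told apart in these rows.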

How the data were processed

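The 8 libraries (TruSeq kit, which does not mark the strand, single-end 36 bp reads) were quantified by the authors in FPKM with Cufflinks. The submitters' processing notes name TopHat2 2.0.0, Cufflinks 2.0.2 and hg19. The deposited FPKM tables hold 75378 rows each, with the 95% interval of Cufflinks, and no counts. RefSeq rows were named from a GRCh38.p14 gene table (names only, 96.6% matched) and GENCODE rows by Ensembl ID (88.7% matched), and FPKM was summed per symbol. Genes with a mean of at least 1 FPKM were tested on log2(FPKM + 0.1) with limma 3.58.1 in R 4.3.3, with cell line and siRNA as terms and Benjamini-Hochberg adjustment over all tested genes. The fold changes on this scale understate those of low genes. The fits were tested on simulated data with 200 genes changed. At the combined level a 2-fold change was recovered for 186 genes between the lines. For siRNA #1 and siRNA #2 against NTC it was recovered for 167 and 176. A 1.25-fold change was recovered for 66, 21 and 24 genes in the same order. In the data 79.4% of the genes passed between the lines, so the recovery for the lines does not describe that test. Depth was estimated from rows whose interval showed a single read, assuming Cufflinks' default fragment length, and intervals cover counting error only. The hosts, the lists and the tests were chosen with earlier results of these data known. Named were all hosts, the nearest coding genes, and per list up to 3 genes that passed with the largest difference. SNORD22, SNORA24 and the other snoRNA rows were named after their values were seen. Alternatives covered the pseudocount, the filter, scaling, row choice, short genes, robust fitting, a replicate block, line subsets and leaving out each library. In the paper's methods RNA was taken later than the 16 h of transfection that the labels give. The labels call the siRNAs pools. The siRNA sequences were not used here. The result of 1 neighbouring gene is not reported here.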

Additional observations from a re-analysis of the deposited data

Results flagged for a closer look

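The NR row of DANCR in A498 with siRNA #2 was at 5.77 FPKM, against 0.000896, 0.902 and 0.956 FPKM in the other 3 A498 libraries, and its gap to the nearest of them was 0.835 of the group's range, past Dixon's 95% critical value for 4 samples. Chance gives such a gap in about 1 of 20 groups of replicates, and these 4 libraries hold NTC, siRNA #1 and siRNA #2. In the same libraries the combined level of DANCR was 14.7 FPKM with siRNA #2 and 14.1 to 14.9 FPKM in the others. The NR share of the combined level was 39.4% with siRNA #2 and at most 6.81% in the others, and its cause was not tested.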

How the results depend on the processing

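The cell line differences kept their direction in every alternative run, and their call except where named above for SNHG6 and the NR row of DANCR. With leaving out each library the 10 hosts at the combined level, and the 4 on NR rows, all stayed called. Over all alternatives the combined level gave -4.29 to -4.24 for SNHG5, -2.51 to -2.40 for DANCR, -1.35 to -1.02 for SNHG3 and 0.23 to 0.31 for SNHG15, and the NR row of DANCR gave -5.38 to -2.40. Adding overlapping rows of other catalogues to the NR rows let 8 hosts be tested and called between the lines, and turned the knockdown difference of DANCR from 1.48 to -0.012. A filter at 5 FPKM left 6607 of 8037 genes called between the lines at the combined level against 10036 of 12639. Without a filter, 1 host was called for the difference of the knockdown effect between the lines, the NR row of SNHG12 (-5.07), which was under 0.001 FPKM in 6 libraries. The number of hosts past the fold limit in single libraries depended on the control. On NR rows it was 2 (A498, siRNA #1), 2 (A498, siRNA #2), 1 (786-O, siRNA #1) and 0 (786-O, siRNA #2), against 1, 2, 2 and 1 with the other NTC library and 4, 4, 3 and 2 without a filter. At the combined level it was 1 for A498 with siRNA #2, against 2 with the other NTC library and 0 with a pseudocount of 1. The replicate block, the same-numbered NTC library as control, gave 1 for A498 with siRNA #1 and 0 for A498 with siRNA #2. The block changed no call of a host in limma. The labels give same-numbered libraries no shared origin. The correlation of their deviations was -0.00479 in A498 and 0.00636 in 786-O on RefSeq rows, and 0.171 and 0.0227 without genes under 200 bases (0.119 and 0.0449 at the combined level). With 2 pairs a line, the numbers were not taken as pairs. Calls over all genes were few and unstable under knockdown: 1 to 25 for siRNA #1 (9 as reported), 2 to 31 for siRNA #2 (5), 2 to 29 between siRNAs (5), 0 to 3 for both (1) and 1 to 48 for the difference between lines (15) at the combined level, and 1 to 52, 2 to 26, 3 to 49, 0 to 3 and 1 to 38 on RefSeq rows (8, 4, 6, 1 and 16 as reported). Genes past the fold limit in a single library ranged from 637 to 6123 at the combined level. The knockdown differences of SNHG5, SNHG12 and GAS5 named above kept their sign in every alternative and were never called. The depth of single rows is a limit for the NR rows, with the interval of Cufflinks at up to 385% of the value for the NR row of SNHG5 and at most 18.9% for its GENCODE row.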
